A study of Mus musculus with 39 samples.

Results

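Livers of male E47KO mice that had taken up the natural glucocorticoid corticosterone (Cort) for 3 weeks were compared with livers of untreated male E47KO mice. The members were chosen by genotype, tissue and treatment as the labels give them, and make up 10 of the 39 samples of the series, with 4 Cort livers and 6 untreated livers. All 10 mice were C57BL/6, were fed chow and carried the E47-/- genotype, a loss of E47 in the whole body that leaves mice without mature B cells, so the comparison shows the response in the absence of E47 and both groups share the loss. Cort was dissolved in ethanol and given in the drinking water at 100 µg/ml, and the mice were killed after a glucose tolerance test, for which the study's methods describe an overnight fast and an injection of glucose. The other 6 mice were labelled untreated, and neither a vehicle nor a fast is named for them in the sources used here. The study's methods give an age of 10 to 16 weeks for its male mice, without separating the groups. The series measured poly(A) RNA by sequencing, to ask how the transcription factor E47 modulates the hepatic action of the glucocorticoid receptor (GR), in liver, muscle and fat of mice on different GR ligands. For the response with E47 present, 4 Cort and 5 untreated livers of wild-type (WT) mice were used beside the 10 E47KO livers.

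Treatment coincided with experiment, library series, glucose tolerance test as far as it is stated and the strand behaviour of the libraries, so none of these can be told apart from Cort in any value below. The strand column with more reads held 50.1% of strand-resolved counts in the Cort libraries and 97.1 to 97.5% in the untreated ones, so counts of both strands were used throughout, which mixes a gene with any antisense partner. The libraries held 37814570 to 46738111 gene counts under Cort and 31114278 to 39014715 without, and replicates of a group differed by more than sampling noise. P-values measure the spread between livers of a group, and the labels do not say whether replicates were housed or processed together.

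Corticosterone is the main glucocorticoid of mice. It enters cells, binds GR and moves it to the nucleus, where GR raises or lowers transcription of genes for glucose production, amino acid breakdown and lipid handling and dampens inflammation. Its presence in the liver is set by the binding globulin in plasma and by the enzyme that regenerates it from the inactive 11-keto form. E47 is a basic helix-loop-helix factor encoded by *Tcf3*, which binds E boxes, is held back by Id proteins and is best known for its need in lymphocyte development.

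Of 14341 genes tested, 3070 were higher and 2519 lower under Cort (edgeR's quasi-likelihood test, adjusted p below 0.05), which makes 39.0% of the genes tested, 21.4% higher and 17.6% lower. The shares with at least a 2-fold difference were 7.15% higher and 4.91% lower. All 4 Cort livers lay above all 6 untreated livers for 16.2% of genes and below all 6 for 11.6%. The median log2 fold change over all genes tested was 0.0045. Given this background, a list of genes is described here by its counts and its median beside the same over all genes, and a member called is 1 of many. The share of calls moved with base composition. Among the fifth of genes with the lowest GC content of the longest transcript 11.8% were higher and 26.1% lower, and among the fifth with the highest GC content 40.1% were higher and 5.98% lower. With an offset for GC content and length, added after seeing the data, 19.5% were higher and 17.5% lower, and 4290 genes were called in the same direction with and without it.

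The Cort livers fell into pairs. The first principal component (46.7% of the variance) separated Cort from untreated livers, and the second (16.4%) separated Cort replicates 1 and 2 from replicates 3 and 4, which also carry lower and higher animal numbers. The second component spread the untreated livers too, with untreated replicate 1 at 42.4 and replicate 2 at -24.7. The Cort livers lay at 25.3, 27.0, -40.9 and -30.9 (replicates 1 to 4), and the other untreated livers at -3.40 to 8.39. Against all 6 untreated livers, replicates 1 and 2 alone gave 16.1% of genes higher and 11.3% lower, and replicates 3 and 4 alone 13.8% higher and 9.31% lower. Of the genes called with all 4 livers, 2318 were called in the same direction with either pair, while 35 genes were higher with one pair and lower with the other. Transcripts of 12 skeletal muscle markers summed to 1.12 and 1.18 CPM (counts per 1000000 gene counts) in Cort replicates 1 and 2, 213 and 184 CPM in replicates 3 and 4, 1.14 CPM in untreated replicate 1 and 18.7 to 354 CPM in the other untreated livers. Results that turn on the pair are given with both.

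The 14 hepatocyte markers that could be matched were at high levels in all 10 livers, summing to 120053 to 147731 CPM under Cort and 109877 to 159081 CPM untreated, and only *Ass1* among them was called. B cell markers were near 0, with *Ighd* and *Fcmr* at 0 counts in every liver and a sum over 13 markers of 1.25 to 2.12 CPM under Cort and 3.22 to 11.8 CPM untreated. *Tcf3* itself had 19.6, 16.4, 17.2 and 20.01 CPM in the Cort livers (replicates 1 to 4, the order used throughout) and 10.9 to 13.4 CPM with a median of 11.7 in the untreated livers. The difference in *Tcf3* was 0.62 ± 0.09 on the log2 scale (adjusted p = 0.000616, where ± is the SE). Its counts do not check the knockout, since the splice form E12 comes from the same gene, and its difference was not called with the GC offset (adjusted p = 0.341).

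Genes of cholesterol synthesis were lower under Cort almost throughout. The pathway turns acetyl-CoA through mevalonate and squalene into cholesterol and is driven by SREBP2, which leaves the ER membrane when sterols are low. Of 26 members of the list, all tested, 22 fell and 1 rose, with a median log2 fold change of -1.66. The share that fell was 84.6%, against 17.6% of all genes. All 4 Cort livers lay below all 6 untreated livers for 21 of the 26 members, against 11.6% of all genes. *Nsdhl* (ENSMUSG00000031349, chromosome X, 72918557 to 72958514, plus strand, GRCm38), a sterol dehydrogenase of the late pathway, had 13.6, 13.8, 16.4 and 16.4 CPM under Cort and 78.6 to 192 CPM with a median of 149 untreated. For *Nsdhl*, the log2 fold change was -3.25 ± 0.27 (adjusted p = 2.97e-05). Its Cort values were close together and 9.50-fold below the untreated ones. *Idi1*, the isopentenyl diphosphate isomerase, had 7.43, 12.6, 15.1 and 11.7 CPM against 52.3 to 129 CPM with a median of 94.0. *Idi1* had a log2 fold change of -2.92 ± 0.31 (adjusted p = 9.14e-05). The methylsterol oxidase *Msmo1* had 34.7, 56.0, 61.1 and 63.2 CPM against 175 to 543.3 CPM with a median of 414. The difference in *Msmo1* was -2.83 ± 0.32 on the log2 scale (adjusted p = 0.000125). In these genes no Cort liver reached the lowest untreated liver, and neither did one for *Dhcr7*, the last reductase of the pathway (13.4, 20.4, 25.3 and 27.9 CPM against 75.4 to 182 CPM with a median of 146, log2 fold change -2.67 ± 0.28, adjusted p = 8.98e-05).

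The early steps fell as well. *Hmgcs1*, which makes HMG-CoA, had 94.7, 116, 108 and 112 CPM under Cort and 176 to 592 CPM with a median of 391 untreated. For *Hmgcs1*, the log2 fold change was -1.86 ± 0.33 (adjusted p = 0.00157). Its untreated livers spanned a wide range, but the highest Cort liver was still below the lowest of them. *Cyp51* (-2.05, adjusted p = 0.000129), *Pmvk* (-2.32, adjusted p = 0.000636), *Fdps* (-1.88, adjusted p = 0.00418), *Sqle* (-1.70, adjusted p = 0.00518) and the SREBP retention factor *Insig1* (-1.81, adjusted p = 0.00100) fell too. *Insig2*, a related retention factor, was the member that rose (log2 fold change 0.86 ± 0.26, adjusted p = 0.0218), with 152, 88.6, 201 and 229.7 CPM against 67.9 to 136 CPM with a median of 85.9, so that Cort replicate 2 lay inside the untreated range. That call ended without Cort replicate 3 or 4 (adjusted p 0.0617 to 0.0773). *Srebf2* (0.32, adjusted p = 0.115) and *Mvd* (-0.54, adjusted p = 0.411) did not pass the test. With replicates 1 and 2 alone 22 members fell, with replicates 3 and 4 alone 19.

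The promoter of *Nsdhl*, the member with the lowest fold change, is shown as an example of the CCAAT box that most members of the list hold, whichever way they moved (RefSeq start site, GRCm38.p6, 250 bases that end at the base before the start, chrX:72918271-72918520, plus strand). Capitals mark the CCAAT box, a sequence bound by the factor NF-Y, found here on the minus strand 109 and 20 bases before the start:
Nsdhl: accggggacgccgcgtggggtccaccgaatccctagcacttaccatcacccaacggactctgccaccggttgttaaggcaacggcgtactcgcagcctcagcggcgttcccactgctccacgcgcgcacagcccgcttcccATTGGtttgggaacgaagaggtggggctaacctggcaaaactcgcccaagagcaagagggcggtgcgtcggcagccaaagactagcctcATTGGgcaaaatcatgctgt

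A CCAAT box on either strand was present in the promoters of 17 of the 18 members with a RefSeq entry, against 37.5% of 27025 genes. These include *Insig2*, which rose, and *Srebf2* and *Mvd*, which were not called, and the box was also in 16 of 19 genes of the unfolded protein response list, of which 11 rose and 1 fell. The sterol regulatory element, searched by a single exact spelling of 10 bases on both strands, was in 0 of the 18 and in 0.0814% of all genes. Among other lists, the glucocorticoid response element (AGAACA and TGTTCT with 3 bases between) was in 1 of 19 GR targets, *Sgk1*, against 0.0111% of genes. The PPAR element (AGGTCA, 1 base, AGGTCA) was in 0 of 17 PPARalpha targets against 0.0407%. The heat shock element (GAA, TTC and GAA with 2 bases between neighbours) was in 2 of 10 heat shock genes, *Hspd1* and *Hspe1*, against 0.514%. The interferon-stimulated element (GAAA and GAAA with 2 bases between) was in 11 of 18 interferon response genes against 3.46%. A match is a description, and no match says only that these letters are not in this window.

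**Figure D1:**
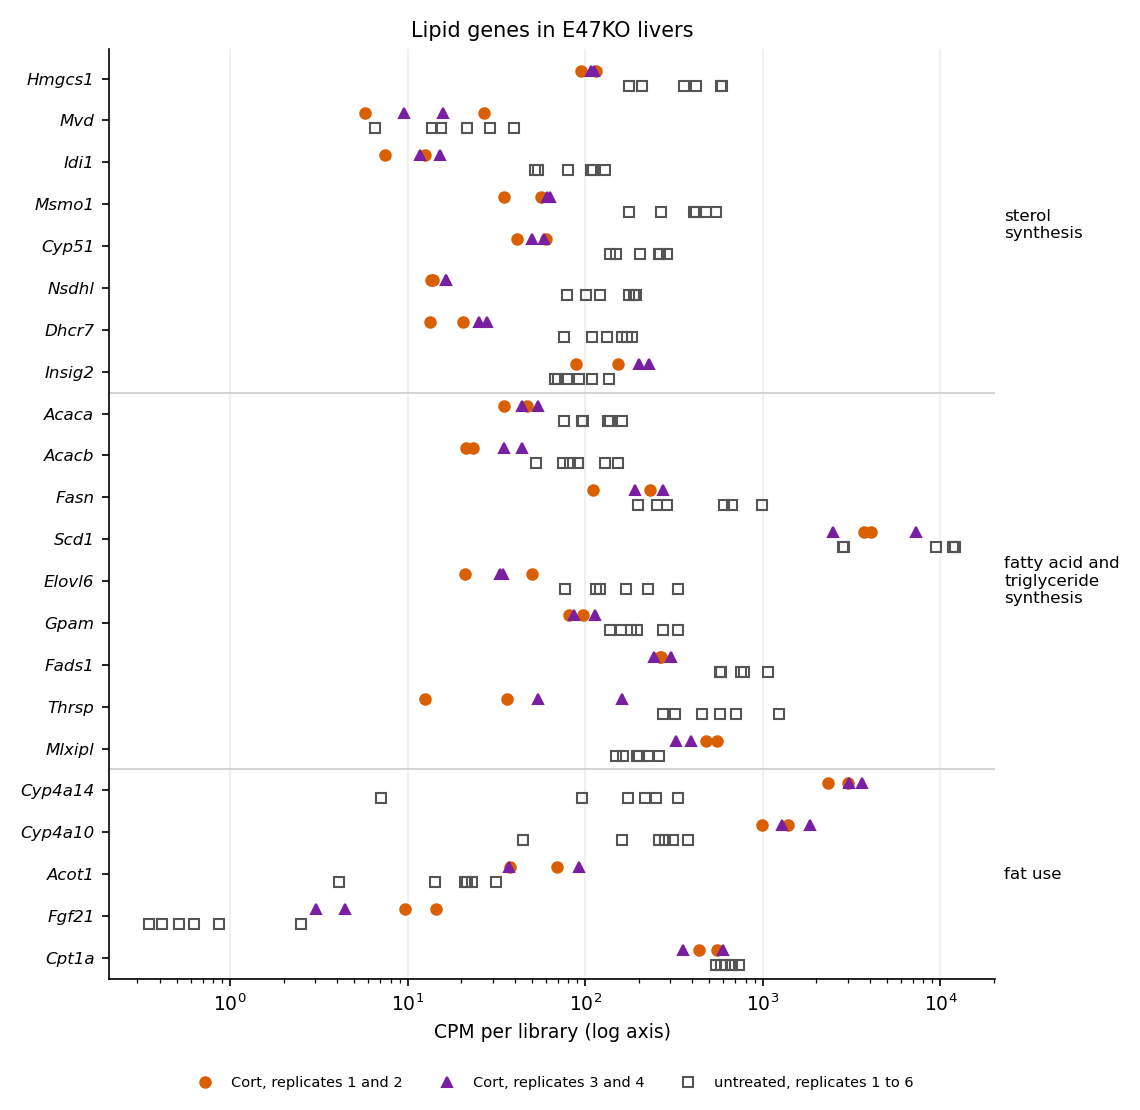
CPM per library (log axis) of genes of sterol synthesis, fatty acid synthesis and fat use in E47KO livers, with Cort replicates 1 and 2 as circles, Cort replicates 3 and 4 as triangles and the 6 untreated livers as open squares. The Cort livers lie left of the untreated livers for most synthesis genes, from 13.6 to 16.4 CPM for *Nsdhl* against 78.6 CPM or more, and right of them for *Cyp4a14*.

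Genes that build fatty acids and triglycerides were also lower, with 13 of 22 members lower (59.1%, against 17.6% of all genes), 1 higher and a median log2 fold change of -1.19. *Thrsp*, the lipogenic protein Spot 14, had 12.4, 36.1, 159.9 and 54.0 CPM under Cort and 275 to 1239 CPM with a median of 512 untreated. The difference in *Thrsp* was -3.18 ± 0.69 on the log2 scale (adjusted p = 0.00429). Cort replicate 3 was the highest of the Cort livers and still below all untreated ones, and the log2 fold change was -4.12 without Cort replicate 3. *Elovl6*, which lengthens palmitate, had 21.1, 50.1, 33.0 and 34.2 CPM against 77.2 to 333 CPM with a median of 145. For *Elovl6*, the log2 fold change was -2.33 ± 0.41 (adjusted p = 0.00131). *Acacb*, the mitochondrial acetyl-CoA carboxylase, had 23.2, 21.3, 34.8 and 44.1 CPM against 52.8 to 153 CPM with a median of 86.3. *Acacb* had a log2 fold change of -1.65 ± 0.31 (adjusted p = 0.00199). Its cytosolic relative *Acaca* (log2 fold change -1.38 ± 0.21, adjusted p = 0.000670), the acetyl-CoA synthetase *Acss2* (log2 fold change -2.03 ± 0.34, adjusted p = 0.00100), the desaturase *Fads1* (log2 fold change -1.42 ± 0.19, adjusted p = 0.000260) and the glycerol-3-phosphate acyltransferase *Gpam* (log2 fold change -1.17 ± 0.24, adjusted p = 0.00311) fell as well, each without overlap between the groups. Fatty acid synthase, *Fasn*, had 110.4, 229.9, 275 and 191 CPM against 199 to 993 CPM with a median of 446. The difference in *Fasn* was -1.32 ± 0.45 on the log2 scale (adjusted p = 0.0385), with overlap, and its call ended without Cort replicate 1, 2 or 4 or untreated replicate 1, 2 or 4 (adjusted p 0.0613 to 0.101). *Srebf1*, which encodes the factor that drives these genes, behaved in the same way (log2 fold change -1.22 ± 0.37, adjusted p = 0.0227) and lost its call without Cort replicate 1, 3 or 4 (adjusted p 0.0561 to 0.0650).

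*Mlxipl*, the gene of the glucose-responsive factor ChREBP, was the member that rose, with 552.5, 479, 395 and 324 CPM under Cort and 149 to 259.8 CPM with a median of 197 untreated (log2 fold change 1.14 ± 0.18, adjusted p = 0.000705) and no overlap. The stearoyl-CoA desaturase *Scd1* did not pass (4047, 3694, 2499 and 7291 CPM against 2810.2 to 12105 CPM with a median of 10570.1, log2 fold change -0.95 ± 0.48, adjusted p = 0.135). *Lpin1*, a phosphatidate phosphatase and coactivator known as a GR target, had 17.8, 12.3, 991 and 197 CPM against 167 to 661 CPM with a median of 256 and a log2 fold change near 0 (-0.06 ± 0.96). Its Cort livers straddled the untreated ones, with replicates 1 and 2 below all 6 (-4.39, adjusted p = 0.00193 with that pair alone) and replicate 3 above all 6 (0.91, adjusted p = 0.298 with replicates 3 and 4 alone).

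Among 21 genes of lipid droplets, uptake and lipolysis 5 rose and 3 fell (38.1% called, against 39.0% of all genes). The droplet coat gene *Plin5*, which couples droplets to mitochondria, had 66.7, 62.3, 148 and 119 CPM under Cort and 27.7 to 49.9 CPM with a median of 34.4 untreated. For *Plin5*, the log2 fold change was 1.43 ± 0.26 (adjusted p = 0.00170). *Plin4* had 58.0, 21.6, 68.7 and 40.6 CPM against 3.36 to 24.4 CPM with a median of 17.7. *Plin4* had a log2 fold change of 1.49 ± 0.43 (adjusted p = 0.0183). *Plin5* did not overlap between the groups, while *Plin4* did and lost its call without Cort replicate 3 (adjusted p = 0.0577). *G0s2*, an inhibitor of the triglyceride lipase ATGL, had 333, 251, 63.1 and 133 CPM against 21.5 to 98.0 CPM with a median of 47.3 (log2 fold change 1.93 ± 0.46, adjusted p = 0.00723), high in Cort replicates 1 and 2 and within or near the untreated range in replicates 3 and 4. *Cidea*, a droplet fusion protein found in fatty livers, had 0.0449, 0.0251, 0.0214 and 0.0257 CPM against 0.292 to 3.20 CPM with a median of 0.345. The difference in *Cidea* was -5.08 ± 1.09 on the log2 scale (adjusted p = 0.00404), with no more than 2 counts in any Cort liver, so the fitted value depends on the prior count. The untreated livers spread more than 10-fold, and the log2 fold change was -4.39 without untreated replicate 4. The main droplet coat gene *Plin2* (-0.03, adjusted p = 0.954) and *Cidec* (-0.05, adjusted p = 0.961) did not pass, and *Cidec* had 17.8% of its strand-resolved counts in the untreated livers on the other strand. *Cd36*, a fatty acid transporter, had 222, 125, 47.5 and 144 CPM against 38.7 to 123 CPM with a median of 52.2 (1.02, adjusted p = 0.0662), and the cytosolic binding protein *Fabp1* fell (log2 fold change -0.94 ± 0.22, adjusted p = 0.00676).

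Of 17 apolipoprotein and lipoprotein secretion genes 5 rose and 1 fell (35.3% called, against 39.0% of all genes). *Apoa4*, an apolipoprotein of chylomicrons and VLDL that rises in steatotic livers, had 589, 509, 334 and 463 CPM under Cort and 46.1 to 127 CPM with a median of 72.2 untreated (log2 fold change 2.59 ± 0.27, adjusted p = 8.20e-05), 6.01-fold higher and well apart in every liver. The other changes were small, with *Apoe* at 0.65, adjusted p = 0.00836, *Lcat* at 0.59, adjusted p = 0.00307 and *Apom*, a carrier on HDL, at -0.88, adjusted p = 0.00855. *Apoa5* rose by 0.52 and lost its call without Cort replicate 3 (adjusted p = 0.0549). *Apob* (0.15, adjusted p = 0.455) and *Mttp* (0.05, adjusted p = 0.725), which assemble VLDL, did not pass.

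Fatty acid oxidation, ketogenesis and PPARalpha targets gave 9 higher and 1 lower of 24 (41.7% called, against 39.0% of all genes), with a median of 0.29. The risers included omega-hydroxylases of the Cyp4a family, which PPARalpha induces on fasting. *Cyp4a14* had 3028, 2324, 3046 and 3626 CPM under Cort and 7.03 to 331 CPM with a median of 195 untreated. For *Cyp4a14*, the log2 fold change was 4.07 ± 0.69 (adjusted p = 0.00108). *Cyp4a10* had 1383, 986, 1280.2 and 1837 CPM against 44.8 to 377 CPM with a median of 271. *Cyp4a10* had a log2 fold change of 2.52 ± 0.43 (adjusted p = 0.00123). These genes are close relatives in a cluster of similar copies that can share reads, and the groups were far apart in each. *Fgf21*, a hormone of the fasted or stressed liver, had 14.4, 9.61, 3.04 and 4.41 CPM against 0.350 to 2.50 CPM with a median of 0.570 (log2 fold change 3.16 ± 0.57, adjusted p = 0.00163, 3.83 without untreated replicate 5), higher in Cort replicates 1 and 2 than in 3 and 4. *Acot1*, a thioesterase of acyl-CoA, rose (1.62, adjusted p = 0.0122). *Cpt1a* (-0.39, adjusted p = 0.0603), *Pdk4* (-0.70, adjusted p = 0.0891) and *Ppara* itself (-0.43, adjusted p = 0.166) did not pass.

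Genes of glucose production and use moved in both directions, with 5 higher and 5 lower of 16 (62.5% called, against 39.0% of all genes). *G6pc*, the phosphatase that releases glucose, had 74.1, 144, 201 and 122 CPM under Cort and 78.6 to 679.6 CPM with a median of 376 untreated. The difference in *G6pc* was -1.55 ± 0.53 on the log2 scale (adjusted p = 0.0371). *Pck1*, which commits oxaloacetate to gluconeogenesis, had 1716, 1259, 4366 and 2991 CPM against 2554 to 4719 CPM with a median of 3813. For *Pck1*, the log2 fold change was -0.53 ± 0.32 (adjusted p = 0.208). Groups overlapped in both, *Pck1* was not called, and the call of *G6pc* ended without Cort replicate 1, 2 or 4 or untreated replicate 4, 5 or 6 (adjusted p 0.0596 to 0.0974). *Pck1* was lower with Cort replicates 1 and 2 alone (-1.33, adjusted p = 0.00868) and close to 0 with replicates 3 and 4 alone (-0.02, adjusted p = 0.960). *Gckr* rose in every Cort liver (339.7, 299.6, 343 and 282 CPM against 157 to 249 CPM with a median of 171, log2 fold change 0.74 ± 0.15, adjusted p = 0.00277), and so did pyruvate carboxylase, *Pcx* (0.75, adjusted p = 0.000449), and *Ldha* (0.78, adjusted p = 0.00137). The glucose transporter *Slc2a2* (-0.61, adjusted p = 0.00641) and glycogen synthase, *Gys2* (-0.92, adjusted p = 0.0165), fell. With the GC offset, 3 members rose and 3 fell, and the call of *G6pc* was not kept (adjusted p = 0.0507).

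Of 15 genes of the insulin and IGF axis 2 rose and 4 fell (40.0% called, against 39.0% of all genes). *Enho*, which encodes the secreted peptide adropin, had 1.28, 2.36, 3.70 and 1.54 CPM under Cort and 8.49 to 25.6 CPM with a median of 14.2 untreated. The difference in *Enho* was -2.81 ± 0.41 on the log2 scale (adjusted p = 0.000463), with all Cort livers below all untreated ones. *Igfals*, the acid-labile subunit that holds IGF1 in serum, had 186, 209, 162 and 182 CPM against 91.9 to 129.8 CPM with a median of 108 (log2 fold change 0.75 ± 0.12, adjusted p = 0.000799), the reverse order. *Igf1* itself (-0.42, adjusted p = 0.0578) and the fasting-induced *Igfbp1* (32.8, 7.5998, 27.4 and 15.2 CPM against 8.35 to 100.1 CPM with a median of 50.9, -1.22, adjusted p = 0.147) did not pass. *Igfbp2* fell (-0.97, adjusted p = 0.0286), a call that ended without Cort replicate 1 or 2 or untreated replicate 2 (adjusted p 0.0520 to 0.0753). Amino acid catabolism and the urea cycle gave 1 higher and 6 lower of 25 (28.0% called, against 39.0% of all genes), with 1 and 12 for Cort replicates 1 and 2 alone and 2 and 2 for replicates 3 and 4 alone. The arginine transporter *Slc7a2* had 285, 196, 479 and 336 CPM against 576 to 1663 CPM with a median of 934. For *Slc7a2*, the log2 fold change was -1.62 ± 0.31 (adjusted p = 0.00226), without overlap. Argininosuccinate synthase, *Ass1*, had 1275, 1253, 2401 and 2032 CPM against 2170.3 to 5235 CPM with a median of 3463. *Ass1* had a log2 fold change of -1.04 ± 0.27 (adjusted p = 0.0110), with replicate 3 inside the untreated range. *Cps1* (-0.70, adjusted p = 0.127) and *Arg1* (-0.67, adjusted p = 0.134) did not pass.

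Well-known GR targets did not move together in these livers. Of 20 members of the list 4 were higher and 1 lower (25.0% called, against 39.0% of all genes), with a median of 0.50. *Fkbp5*, the immunophilin that GR induces and that holds GR back, had 75.5, 54.6, 444 and 354 CPM under Cort and 36.2 to 112 CPM with a median of 54.2 untreated. The difference in *Fkbp5* was 1.85 ± 0.55 on the log2 scale (adjusted p = 0.0208). Cort replicates 1 and 2 lay inside the untreated range and replicates 3 and 4 far above it, and the call ended without Cort replicate 3 or 4 (adjusted p 0.0630 to 0.0840). With the pairs taken alone the log2 fold change was 0.01 (adjusted p = 0.987) and 2.63 (adjusted p = 0.00205). The split was shared by several other targets, as replicates 1 and 2 alone gave 4 higher and 5 lower with a median of -0.09, and replicates 3 and 4 alone 8 higher and 0 lower with a median of 0.93.

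*Per1*, a clock gene with a GR site, had 14.4, 27.8, 110.9 and 54.3 CPM under Cort and 26.6 to 58.0 CPM with a median of 39.2 untreated (0.38, adjusted p = 0.520 with all 4), lower with replicates 1 and 2 alone (-0.92, adjusted p = 0.0489) and higher with replicates 3 and 4 alone (1.05, adjusted p = 0.0273). *Zbtb16*, a steroid-induced zinc finger repressor, had 4.18, 2.48, 44.8 and 61.6 CPM against 13.4 to 42.9 CPM with a median of 15.4, in the same order (-2.57, adjusted p = 0.00731, and 1.42, adjusted p = 0.0289). *Tsc22d3*, the glucocorticoid-induced leucine zipper, had 44.1, 59.5, 275 and 122 CPM against 42.6 to 221 CPM with a median of 95.8 (0.21, adjusted p = 0.787), and neither pair alone was called. *Tat*, tyrosine aminotransferase, had 693.7, 806, 3193 and 1028 CPM against 919.8 to 2967 CPM with a median of 2302 (-0.57, adjusted p = 0.338), with only replicate 3 above the untreated range. The pairs also differ in muscle transcripts. The libraries that hold them are Cort replicates 3 and 4 and untreated replicates 2 to 6, a choice made after seeing the data. With these libraries alone 9 members rose and 1 fell. The share of all genes called with these libraries is not given here, so this count is not set against that of all livers. Whether muscle content bears on the GR targets was not tested.

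The called targets that stood apart in all Cort livers were *Sult1e1*, *Gadd45b* and *Cdkn1a*. They make 3 of 20 members, while all 4 Cort livers lay above all 6 untreated livers for 16.2% of all genes. *Sult1e1*, the oestrogen sulfotransferase, had 25.3, 5.72, 5.65 and 3.46 CPM under Cort and 0.0865 to 1.14 CPM with a median of 0.157 untreated (log2 fold change 4.99 ± 0.75, adjusted p = 0.000569), and the value was 6.05 without untreated replicate 6 and 3.97 without Cort replicate 1. *Gadd45b*, a stress-induced growth arrest gene, had 7.65, 3.99, 30.8 and 2.28 CPM against 0.331 to 1.38 CPM with a median of 0.470 (log2 fold change 4.22 ± 0.69, adjusted p = 0.000893, 2.94 without Cort replicate 3). *Cdkn1a*, the cell cycle inhibitor p21, had 17.0, 15.5, 56.4 and 23.2 CPM against 1.12 to 3.42 CPM with a median of 2.28 (log2 fold change 3.66 ± 0.42, adjusted p = 0.000129, 3.06 without Cort replicate 3). In all 3 the lowest Cort liver exceeded the highest untreated liver, by less than 2-fold for *Gadd45b*. *Klf9*, an early GR target in many tissues, was lower (-0.62, adjusted p = 0.0482), a call lost without Cort replicate 1 or 2 or untreated replicate 2, 3, 4, 5 or 6 (adjusted p 0.0695 to 0.112). The metallothioneins *Mt1* (0.62, adjusted p = 0.328) and *Mt2* (0.58, adjusted p = 0.522) and *Sgk1* (0.04, adjusted p = 0.887) did not pass.

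**Figure D2:**
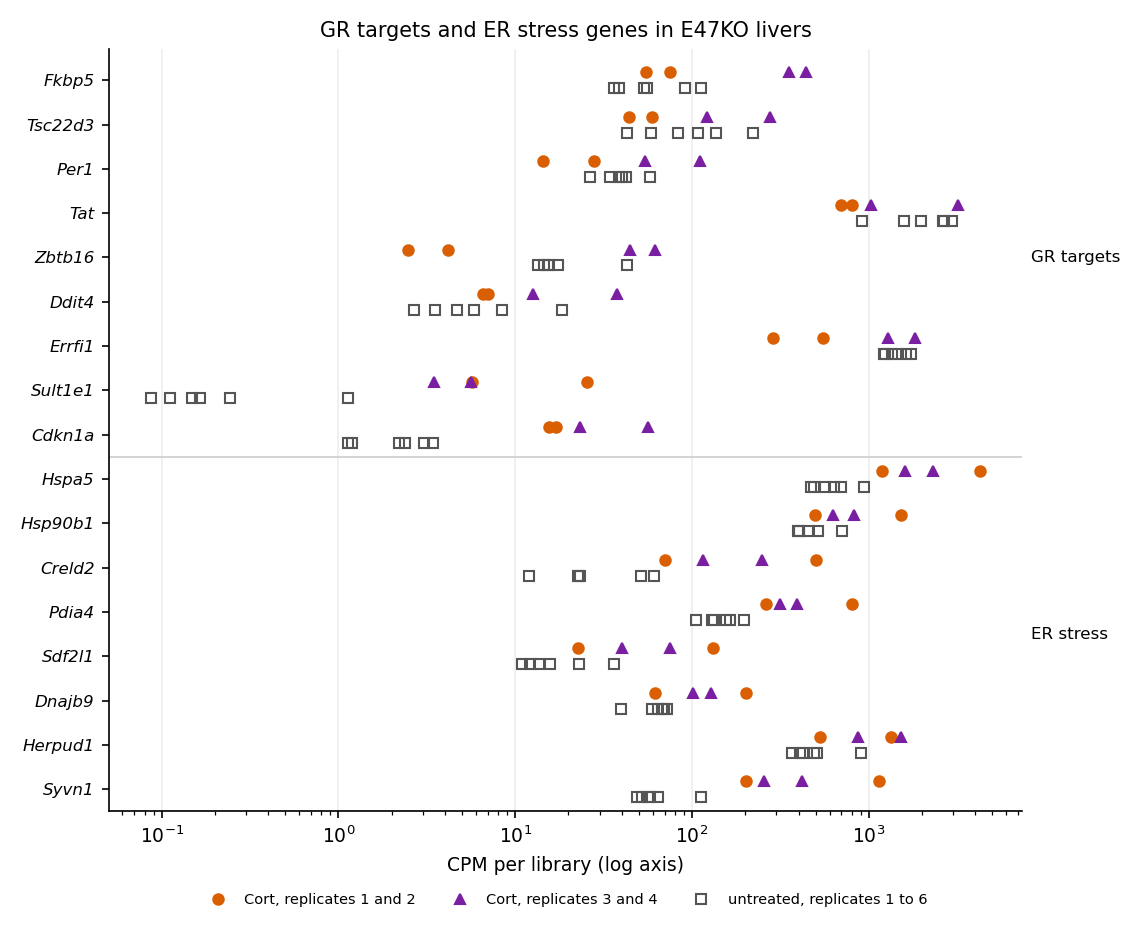
CPM per library (log axis) of classical GR targets and of ER stress genes in E47KO livers, with Cort replicates 1 and 2 as circles, replicates 3 and 4 as triangles and untreated livers as open squares. For *Fkbp5* the circles sit among the squares and the triangles at 354 and 444 CPM, while for *Hspa5* and *Creld2* all Cort livers lie right of the squares, replicate 2 farthest.

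Of 20 genes for GR, its hormone and its coregulators 4 rose and 3 fell (35.0% called, against 39.0% of all genes). GR itself, *Nr3c1*, had 79.4, 64.2, 70.0 and 74.1 CPM under Cort and 55.9 to 119.7 CPM with a median of 104 untreated. For *Nr3c1*, the log2 fold change was -0.45 ± 0.18 (adjusted p = 0.0618), with overlap and no call. *Hsd11b1*, which regenerates corticosterone from its inactive form, had 784, 716, 773 and 703 CPM against 423 to 575 CPM with a median of 490.3 (log2 fold change 0.59 ± 0.10, adjusted p = 0.00131), higher in every Cort liver. *Srd5a1*, a reductase that clears the hormone, had 29.4, 44.5, 49.1 and 58.1 CPM against 76.1 to 127 CPM with a median of 123 (log2 fold change -1.33 ± 0.20, adjusted p = 0.000523), lower in every Cort liver. The GR co-chaperone *Fkbp4* rose (0.75, adjusted p = 0.000819) and the corticosteroid-binding globulin gene *Serpina6* did not pass (275, 276, 84.4 and 172 CPM against 179.6 to 585 CPM with a median of 347, -0.86, adjusted p = 0.0763). Among 7 E proteins and Id inhibitors, the partners and antagonists of E47, 3 were higher and 1 lower (57.1% called, against 39.0% of all genes). *Id3* had 137, 151, 61.3 and 66.8 CPM against 12.7 to 43.3 CPM with a median of 35.2. *Id3* had a log2 fold change of 1.70 ± 0.35 (adjusted p = 0.00306), without overlap and highest in replicates 1 and 2. *Id1* (1.15, adjusted p = 0.0448) and *Tcf4* (-0.33, adjusted p = 0.0453) were called with overlap, *Id1* lost its call without Cort replicate 1 or 2 or untreated replicate 1, 3, 4 or 6 (adjusted p 0.0678 to 0.177), and *Tcf4* without Cort replicate 1, 2, 3 or 4 or untreated replicate 2, 3, 4, 5 or 6 (adjusted p 0.0557 to 0.109). With the GC offset only *Id3* of the list was called (1.53, adjusted p = 0.00964).

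Genes of the unfolded protein response rose, as a list in Cort replicates 2 to 4. This response senses misfolded proteins in the ER through IRE1, PERK and ATF6 and induces chaperones and degradation factors, and its PERK arm shares ATF4 with the response to amino acid shortage. Of 19 members tested 11 rose (57.9%, against 21.4% of all genes) and 1 fell, with a median of 0.86. All 4 Cort livers lay above all 6 untreated livers for 5 of the 19, against 16.2% of all genes. The median over the list of log2 CPM minus the untreated mean was 0.11, 1.42, 0.98 and 0.59 in Cort replicates 1 to 4. Untreated replicate 6 was at 0.18, so Cort replicate 1 lay inside the untreated range. *Hspa5* (ENSMUSG00000026864, chromosome 2, 34771970 to 34777547, plus strand, GRCm38), the ER chaperone BiP, had 1185, 4273, 2319.9 and 1608 CPM under Cort and 470.2 to 937 CPM with a median of 599 untreated. The difference in *Hspa5* was 1.89 ± 0.32 on the log2 scale (adjusted p = 0.00108). *Creld2*, an ER-resident disulfide isomerase, had 70.7, 503, 248 and 115 CPM against 12.0 to 61.0 CPM with a median of 23.0 (log2 fold change 2.86 ± 0.56, adjusted p = 0.00243, 2.17 without Cort replicate 2). In these genes every Cort liver was above every untreated liver, and Cort replicate 2 was the highest. *Pdia4*, another disulfide isomerase, showed the same order (263, 805, 395 and 313 CPM against 105 to 197 CPM with a median of 144, log2 fold change 1.59 ± 0.28, adjusted p = 0.00146). *Hsp90b1*, the ER chaperone GRP94, had 498, 1521, 828 and 626 CPM against 399 to 704 CPM with a median of 431. For *Hsp90b1*, the log2 fold change was 0.86 ± 0.28 (adjusted p = 0.0323), with overlap, and its call ended without Cort replicate 2 or 3 or untreated replicate 2, 4 or 5 (adjusted p 0.0548 to 0.140). *Pdia6* did not pass (204, 472, 347 and 248 CPM against 222 to 392 CPM with a median of 253, log2 fold change 0.19 ± 0.24, adjusted p = 0.553).

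These 4 genes, *Hspa5*, *Creld2*, *Hsp90b1* and *Pdia6*, were the members whose promoters hold a full ER stress response element, CCAAT and CCACG with 9 bases of any kind between them, on either strand (4 of 19 members with an entry, against 0.13% of 27025 genes). They are shown because the same element stands in promoters of genes with log2 fold changes from 0.19 to 2.86. Each sequence is the 250 bases before the RefSeq start (GRCm38.p6), for *Hspa5* chr2:34771840-34772089, plus strand, for *Creld2* chr15:88819396-88819645, plus strand, for *Hsp90b1* chr10:86705445-86705694, minus strand, and for *Pdia6* chr12:17266339-17266588, plus strand, with the element in capitals (on the strand opposite to the printed one in *Creld2* and in the match of *Hsp90b1* nearer the start):
Hspa5: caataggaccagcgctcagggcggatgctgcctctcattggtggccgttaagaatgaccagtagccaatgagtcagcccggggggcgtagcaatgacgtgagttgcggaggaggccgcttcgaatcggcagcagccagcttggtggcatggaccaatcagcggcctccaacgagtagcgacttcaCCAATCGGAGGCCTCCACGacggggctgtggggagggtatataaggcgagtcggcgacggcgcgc
Creld2: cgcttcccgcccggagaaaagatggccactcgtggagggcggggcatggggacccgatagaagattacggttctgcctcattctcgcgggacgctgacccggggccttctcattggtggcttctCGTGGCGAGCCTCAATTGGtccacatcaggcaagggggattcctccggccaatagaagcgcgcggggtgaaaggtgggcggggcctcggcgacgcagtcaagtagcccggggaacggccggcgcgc
Hsp90b1: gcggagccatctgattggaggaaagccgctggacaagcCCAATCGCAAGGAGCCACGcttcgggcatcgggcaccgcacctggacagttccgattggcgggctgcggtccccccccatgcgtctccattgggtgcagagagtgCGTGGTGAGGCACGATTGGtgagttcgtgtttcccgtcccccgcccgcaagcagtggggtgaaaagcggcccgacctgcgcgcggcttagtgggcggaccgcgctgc
Pdia6: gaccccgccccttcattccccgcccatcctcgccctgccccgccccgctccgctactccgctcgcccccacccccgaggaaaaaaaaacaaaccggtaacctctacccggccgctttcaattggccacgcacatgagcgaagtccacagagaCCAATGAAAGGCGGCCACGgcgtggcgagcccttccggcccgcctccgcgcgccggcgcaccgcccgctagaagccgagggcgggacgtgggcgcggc

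The element began 65 bases before the start in *Hspa5*, 126 in *Creld2*, 98 in *Pdia6*, and 212 and 107 in *Hsp90b1*. Other members that rose, among them *Sdf2l1* (1.86, adjusted p = 0.00823), *Manf* (1.65, adjusted p = 0.00314), *Herpud1* (1.04, adjusted p = 0.0198) and *Dnajb9* (0.99, adjusted p = 0.0134), had no full element in this window. The call of *Herpud1* ended without Cort replicate 2 or 3 (adjusted p 0.0617 to 0.0694) and that of *Dnajb9* without Cort replicate 2 (adjusted p = 0.0507). *Syvn1*, the ubiquitin ligase of ER-associated degradation, was no member of the list but among the largest rises (202, 1142, 419 and 254 CPM against 49.1 to 113 CPM with a median of 56.8, log2 fold change 2.95 ± 0.44, adjusted p = 0.000575, 2.16 without Cort replicate 2).

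On the PERK and ATF4 side the members parted. *Ddit3*, which encodes CHOP, had 23.1, 54.2, 19.2 and 9.70 CPM under Cort and 3.57 to 9.54 CPM with a median of 4.51 untreated (log2 fold change 2.32 ± 0.41, adjusted p = 0.00147, 1.70 without Cort replicate 2), although 37.7% of its strand-resolved counts in the untreated livers lay on the other strand, which makes it uncertain. *Atf5* had 337, 272, 280.2 and 269 CPM against 73.1 to 152 CPM with a median of 101 (log2 fold change 1.48 ± 0.17, adjusted p = 0.000120), well above in every Cort liver. *Asns*, asparagine synthetase, had 5.61, 5.37, 2.89 and 4.57 CPM against 4.53 to 48.3 CPM with a median of 19.2 (log2 fold change -2.37 ± 0.56, adjusted p = 0.00670), the member that fell. *Trib3* (-0.38, adjusted p = 0.543), *Chac1* (-0.19, adjusted p = 0.6249) and *Atf4* (0.10, adjusted p = 0.609) did not pass.

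Cytosolic heat shock genes rose too, with 8 of 11 higher (72.7%, against 21.4% of all genes), 1 lower and a median of 0.97. *Hsph1*, an HSP110 co-chaperone, had 105, 144, 105 and 98.9 CPM under Cort and 20.7 to 60.3 CPM with a median of 38.3 untreated (log2 fold change 1.58 ± 0.24, adjusted p = 0.000586), and the co-chaperone *Bag3* had 48.8, 87.3, 59.9 and 46.4 CPM against 16.6 to 39.2 CPM with a median of 20.4. *Bag3* had a log2 fold change of 1.43 ± 0.25 (adjusted p = 0.00136). The groups did not overlap in either gene. *Hspa1b*, the inducible HSP70, had 17.4, 46.8, 6.12 and 8.18 CPM against 1.33 to 6.47 CPM with a median of 2.49 (log2 fold change 2.70 ± 0.57, adjusted p = 0.00370, 1.81 without Cort replicate 2), high in Cort replicates 1 and 2 and overlapping in replicate 3, and it has a near-identical copy that can share its reads. The mitochondrial chaperonin *Hspd1* fell (373, 416, 351 and 414 CPM against 530.1 to 701 CPM with a median of 541, log2 fold change -0.55 ± 0.11, adjusted p = 0.00278). *Hspa8* (1.03, adjusted p = 0.0200) and *Hsp90aa1* (0.97, adjusted p = 0.00823), which fold client proteins including GR, rose, the call of *Hspa8* ending without Cort replicate 2 (adjusted p = 0.0624).

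Male-biased genes were lower and some female-biased genes higher under Cort. Male mice release growth hormone in pulses, which activate STAT5 in the liver and keep male-biased genes high and female-biased genes low. Of 20 male-biased genes 12 fell (60.0%, against 17.6% of all genes) and 0 rose, with a median of -1.38. *Selenbp2*, a selenium-binding protein, had 9.65, 30.6, 179 and 63.0 CPM under Cort and 486 to 2252 CPM with a median of 577 untreated (log2 fold change -3.71 ± 0.81, adjusted p = 0.00453, -4.75 without Cort replicate 3). *Ugt2b38*, a glucuronosyltransferase, had 0.382, 1.98, 0.557 and 0.667 CPM against 6.40 to 30.8 CPM with a median of 16.6 (log2 fold change -4.30 ± 0.60, adjusted p = 0.000400, -5.03 without Cort replicate 2). *Hsd3b5* (ENSMUSG00000038092, chromosome 3, 98618634 to 98630252, minus strand, GRCm38), a male-specific steroid dehydrogenase, had 16.2, 74.2, 31.6 and 18.3 CPM against 114 to 314 CPM with a median of 220.4 (log2 fold change -2.62 ± 0.46, adjusted p = 0.00132, -3.29 without Cort replicate 2). In each of these the highest Cort liver was below the lowest untreated liver. *Cyp7b1* (-2.43, adjusted p = 0.00130), *Nudt7* (-1.81, adjusted p = 0.00245), *Slco1a1* (-1.35, adjusted p = 0.000404), *Susd4* (-1.49, adjusted p = 0.000367), *Serpina12* (-1.85, adjusted p = 0.0251) and *Elovl3* (-1.41, adjusted p = 0.0197) fell as well, but the call of *Serpina12* ended without Cort replicate 1, 2 or 4 (adjusted p 0.0504 to 0.0689) and that of *Elovl3* without Cort replicate 1 or 2 (adjusted p 0.0517 to 0.0533). *Cyp2d9* (-0.23, adjusted p = 0.450), *Cyp2u1* (-0.04, adjusted p = 0.949) and *Mup20* (0.24, adjusted p = 0.538) did not pass.

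The major urinary proteins, pheromone carriers that male livers secrete, took 6 of the 12 places among the largest falls (*Mup18*, *Mup11*, *Mup14*, *Mup12*, *Mup8* and *Mup7*). Their genes are near-identical copies, and the counts can be split between them. *Mup7* had 33.6, 231, 70.2 and 178 CPM under Cort and 332 to 3764 CPM with a median of 1839 untreated. The difference in *Mup7* was -3.84 ± 0.75 on the log2 scale (adjusted p = 0.00244). *Mup11* had 5.70, 38.1, 2.89 and 12.8 CPM against 82.8 to 1957 CPM with a median of 696 (log2 fold change -5.73 ± 1.09, adjusted p = 0.00222, -6.79 without Cort replicate 2). The list member *Mup1* overlapped in 1 untreated liver (3.46, 12.6, 1.22 and 10.1 CPM against 6.72 to 265 CPM with a median of 123, log2 fold change -4.23 ± 0.96, adjusted p = 0.00539). *Mup18* was -4.81 without untreated replicate 6 and *Mup8* -3.20 without untreated replicate 6, against -5.78 and -4.06 with all livers.

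Of 15 female-biased genes tested (10 of the 25 on the list were too low or not matched) 6 rose and 1 fell. The share that rose was 40.0%, against 21.4% of all genes, but a gene low in untreated livers can pass the filter through the Cort livers alone. *Cyp2a22*, a cytochrome P450, had 25.9, 18.4, 1.498 and 16.8 CPM under Cort and 0.875 to 3.86 CPM with a median of 2.45 untreated. For *Cyp2a22*, the log2 fold change was 2.77 ± 0.59 (adjusted p = 0.00390), with replicate 3 inside the untreated range. *Trim24*, a corepressor, rose in every Cort liver (62.1, 42.9, 49.3 and 68.8 CPM against 22.4 to 41.1 CPM with a median of 34.7, log2 fold change 0.79 ± 0.20, adjusted p = 0.00829), and *Cux2*, a female-specific repressor, rose by 2.55 (3.47 without untreated replicate 2) but not in replicate 2 (3.41, 0.251, 1.91 and 5.31 CPM against 0.165 to 1.56 CPM with a median of 0.223), and lost its call without Cort replicate 4 (adjusted p = 0.0732).

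Other female-biased genes stayed low in part of the Cort livers. *Cyp2b9* had 36.6, 6.72, 0.0428 and 0.410 CPM under Cort and 0.0584 to 2.83 CPM with a median of 2.04 untreated (log2 fold change 2.73 ± 1.16, adjusted p = 0.0825), above the untreated livers in replicates 1 and 2 and at or below them in 3 and 4. *Cyp2a4* had 4.40, 5.97, 0.407 and 0.898 CPM against 0.817 to 499 CPM with a median of 2.37 (log2 fold change -4.86 ± 2.13, adjusted p = 0.0915), and its fold change turned on untreated replicate 2, the one liver at 499 CPM. In the growth hormone axis itself 41.7% of 12 genes were called, against 39.0% of all genes. Of these 4 rose and 1 fell, the growth hormone receptor gene *Ghr* (498, 556, 378 and 426 CPM against 579 to 779 CPM with a median of 703, log2 fold change -0.58 ± 0.13, adjusted p = 0.00553). *Stat5b* (0.22, adjusted p = 0.0977), *Socs2* (0.20, adjusted p = 0.591), *Cish* (-0.08, adjusted p = 0.940) and the repressor *Bcl6* (0.27, adjusted p = 0.744) did not pass, and *Socs3* was called higher (1.21, adjusted p = 0.0481, 0.57 without Cort replicate 1) but not without Cort replicate 1 or 2 or untreated replicate 1, 3, 4, 5 or 6 (adjusted p 0.0606 to 0.263).

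**Figure D3:**
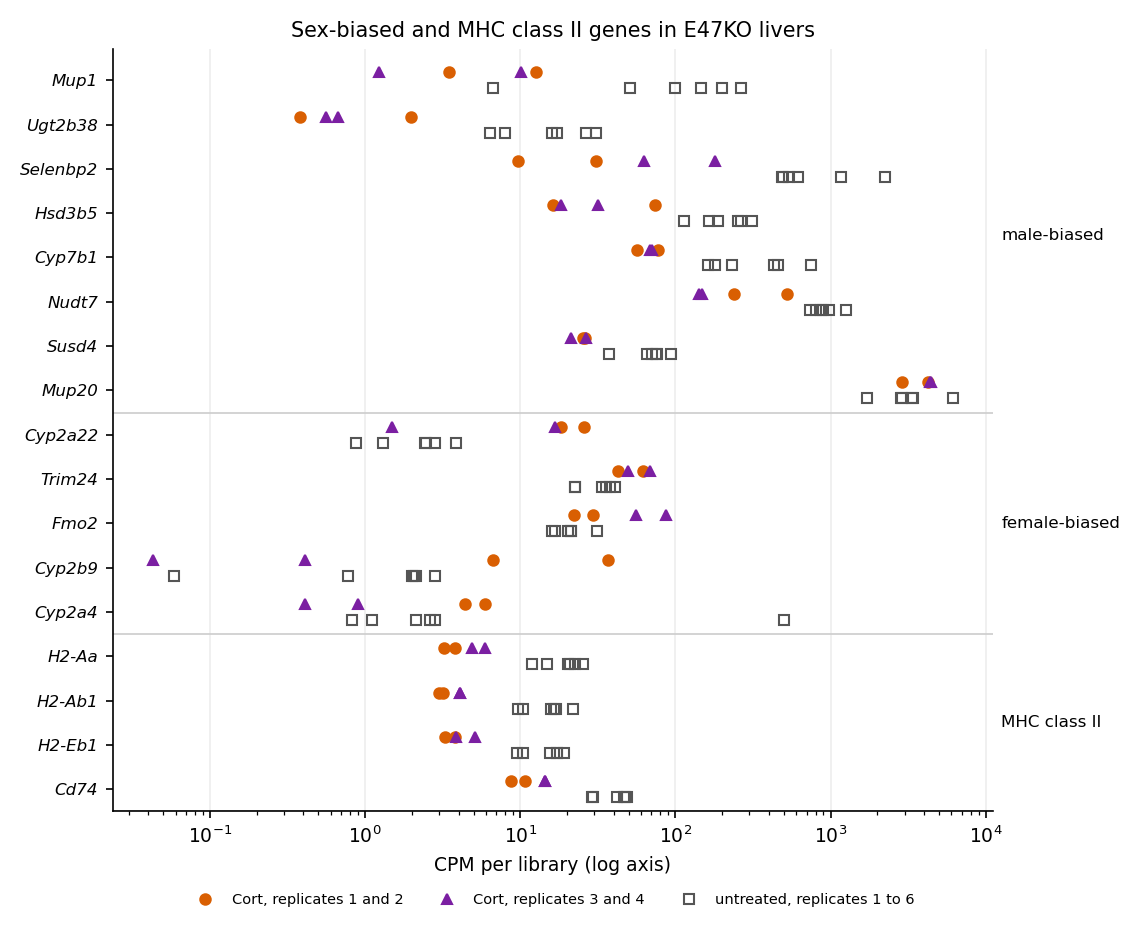
CPM per library (log axis) of male-biased, female-biased and MHC class II genes in E47KO livers, with Cort replicates 1 and 2 as circles, replicates 3 and 4 as triangles and untreated livers as open squares. *Cyp2b9* splits between the Cort pairs, and all 4 Cort livers lie left of the untreated livers for the MHC class II genes.

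In drug metabolism 4 of 27 genes rose and 4 fell (29.6% called, against 39.0% of all genes). *Cyp2b10*, the marker of the xenobiotic receptor CAR, had 17.7, 9.76, 63.6 and 65.2 CPM under Cort and 0.117 to 5.88 CPM with a median of 1.16 untreated (log2 fold change 4.13 ± 0.88, adjusted p = 0.00397), above all untreated livers in each Cort liver, and CAR's own gene *Nr1i3* rose with it (97.7, 72.9, 57.0 and 84.5 CPM against 24.7 to 48.9 CPM with a median of 35.2, log2 fold change 1.08 ± 0.20, adjusted p = 0.00168). *Cyp1a2* (-0.81, adjusted p = 0.0101), *Cyp2a5* (-0.77, adjusted p = 0.0262), *Cyp2c55* (-2.36, adjusted p = 0.00719) and *Gstm3* (-1.33, adjusted p = 0.0343) fell, the call of *Cyp2a5* ending without Cort replicate 1 or 3 (adjusted p 0.0625 to 0.0723), and that of *Gstm3* without Cort replicate 1, 2, 3 or 4 or untreated replicate 2 (adjusted p 0.0571 to 0.0795). Bile acid genes gave 2 higher and 2 lower of 18 (22.2% called, against 39.0% of all genes). *Nr0b2*, the bile acid-induced repressor SHP, had 36.7, 43.1, 39.5 and 39.0 CPM against 6.18 to 26.4 CPM with a median of 17.4. *Nr0b2* had a log2 fold change of 1.22 ± 0.30 (adjusted p = 0.00791), without overlap. *Cyp7b1* of the alternative pathway fell as given above, while *Cyp7a1*, the rate-limiting enzyme of the classical pathway, did not pass (84.9, 179, 234 and 108 CPM against 73.3 to 579 CPM with a median of 335, log2 fold change -0.997 ± 0.51, adjusted p = 0.141).

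Of 19 clock and output genes 2 rose and 2 fell (21.1% called, against 39.0% of all genes). *Per2*, a core repressor of the clock, had 63.8, 97.5, 61.3 and 69.8 CPM under Cort and 28.7 to 40.7 CPM with a median of 35.5 untreated. The difference in *Per2* was 1.05 ± 0.14 on the log2 scale (adjusted p = 0.000286). The repressor *Nfil3* had 44.6, 37.0, 36.9 and 35.2 CPM against 9.78 to 27.9 CPM with a median of 17.8. For *Nfil3*, the log2 fold change was 1.05 ± 0.29 (adjusted p = 0.0149). Both lay above the untreated range in all 4 Cort livers. The activator *Arntl* (4.00, 1.91, 9.20 and 7.18 CPM against 0.553 to 6.00 CPM with a median of 2.17, 1.17, adjusted p = 0.136) and the output gene *Dbp* (54.8, 63.0, 12.2 and 22.4 CPM against 19.6 to 72.0 CPM with a median of 33.6, -0.15, adjusted p = 0.822) did not pass, and the time of day at which the mice were killed is not given in the sources used here. *Nr1d2* (-0.61, adjusted p = 0.0110) and *Rora* (-0.59, adjusted p = 0.0420) were lower, the call of *Rora* ending without Cort replicate 1, 2, 3 or 4 or untreated replicate 2, 3, 4, 5 or 6 (adjusted p 0.0549 to 0.122).

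Among 18 hepatokines and secreted regulators 7 rose and 0 fell. The share called was close to that of all genes (39.0%), while the share that rose was above that of all genes (21.4%). *Agt*, angiotensinogen, had 991, 961, 1094 and 991 CPM under Cort and 434 to 550.98 CPM with a median of 476 untreated. *Agt* had a log2 fold change of 1.07 ± 0.10 (adjusted p = 4.12e-05), with little spread in either group. *Angptl8*, a feeding-induced inhibitor of lipoprotein lipase, had 221, 164, 108 and 76.9 CPM against 8.86 to 60.2 CPM with a median of 16.1 (log2 fold change 2.72 ± 0.52, adjusted p = 0.00211, 3.35 without untreated replicate 2), also apart. *Inhbe*, an activin subunit, had 253, 173, 61.0 and 152 CPM against 30.4 to 75.4 CPM with a median of 42.0 (log2 fold change 1.67 ± 0.35, adjusted p = 0.00377), overlapping in Cort replicate 3. *Gdf15* (1.51, adjusted p = 0.0411) and *Tsku* (1.02, adjusted p = 0.0301) lost their calls without Cort replicate 1 or 2 or untreated replicate 2, 3, 4, 5 or 6 (adjusted p 0.0529 to 0.158) and without Cort replicate 3 or untreated replicate 1 or 3 (adjusted p 0.0507 to 0.134), respectively.

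Acute phase and complement genes gave 3 higher and 1 lower of 26 (15.4% called, against 39.0% of all genes). *Saa1*, a serum amyloid of the acute phase, had 143, 104, 37.5 and 60.9 CPM under Cort and 41.1 to 1980.3 CPM with a median of 150.4 untreated (log2 fold change -2.89 ± 1.18, adjusted p = 0.0729), where untreated replicates 5 and 6 held the high values. *Lcn2*, another inducible acute phase gene, had 74.6, 34.3, 67.3 and 41.0 CPM against 3.00 to 147 CPM with a median of 16.8 (0.16, adjusted p = 0.908) with a similar spread. *Lbp*, the lipopolysaccharide-binding protein, rose (185, 127, 274 and 209 CPM against 55.9 to 170.2 CPM with a median of 78.8, log2 fold change 1.10 ± 0.31, adjusted p = 0.0158) but not without Cort replicate 3 (adjusted p = 0.0536).

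Interferon-induced genes split between the Cort pairs, while the immediate early list stood high in Cort replicate 1 alone. Of 20 interferon response genes 1 rose and 6 fell with all livers (35.0% called, against 39.0% of all genes), 6 rose and 4 fell with Cort replicates 1 and 2 alone, and 0 rose and 11 fell with replicates 3 and 4 alone. The chemokine *Cxcl10* had 18.8, 14.6, 1.20 and 0.693 CPM under Cort and 1.75 to 2.74 CPM with a median of 1.98 untreated (log2 fold change 2.07 ± 0.71, adjusted p = 0.0379), higher with the first pair (2.99, adjusted p = 1.73e-05) and lower with the second (-1.14, adjusted p = 0.0218). Its call with all livers ended without Cort replicate 1 or 2 or untreated replicate 1, 2, 3, 4, 5 or 6 (adjusted p 0.0515 to 0.159), and the log2 fold change was 1.39 without Cort replicate 1. *Irf7*, a master regulator of interferon genes, was lower in all Cort livers (17.4, 16.4, 15.9 and 14.5 CPM against 21.7 to 44.7 CPM with a median of 29.9, log2 fold change -0.96 ± 0.17, adjusted p = 0.00143). *Fos* had 11.9, 2.18, 0.835 and 0.744 CPM against 0.469 to 1.05 CPM with a median of 0.774 (log2 fold change 2.34 ± 0.69, adjusted p = 0.0191, 0.69 without Cort replicate 1, with adjusted p = 0.177), high in Cort replicate 1. *Atf3*, a stress-induced repressor, had 19.2, 5.82, 1.91 and 0.975 CPM against 0.292 to 1.38 CPM with a median of 0.637 (log2 fold change 3.30 ± 0.73, adjusted p = 0.00481, 2.03 without Cort replicate 1). In all, 3 of 16 immediate early genes rose and 1 fell, against 6 and 1 with the first pair and 0 and 1 with the second. The median over the list of log2 CPM minus the untreated mean was 0.83, -0.24, -0.060 and -0.075 in Cort replicates 1 to 4. The share called with all livers was 25.0%, against 39.0% of all genes.

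MHC class II genes, which present antigen on B cells, dendritic cells and macrophages, were lower in every Cort liver. Of 10 members 7 passed the filter on low counts, and 6 of those fell (85.7%, against 17.6% of all genes), with a median of -1.75. *H2-Aa* had 3.82, 3.21, 5.91 and 4.90 CPM under Cort and 11.8 to 25.5 CPM with a median of 20.5 untreated. The difference in *H2-Aa* was -2.11 ± 0.24 on the log2 scale (adjusted p = 0.000129). *H2-Ab1* had 3.19, 2.98, 4.07 and 4.10 CPM against 9.66 to 21.9 CPM with a median of 16.1. For *H2-Ab1*, the log2 fold change was -2.08 ± 0.24 (adjusted p = 0.000129). The invariant chain *Cd74* had 10.8, 8.65, 14.4 and 14.4 CPM against 28.9 to 48.5 CPM with a median of 44.3. *Cd74* had a log2 fold change of -1.75 ± 0.21 (adjusted p = 0.000151). The groups were apart by a clear gap in each. *Ciita*, the coactivator that controls these genes, was at the edge of detection and did not pass (0.651, 0.577, 0.621 and 0.436 CPM against 0.389 to 1.10 CPM with a median of 0.880, -0.44, adjusted p = 0.294). In bulk liver, fewer cells of a type and less RNA per cell cannot be told apart. The promoter of *H2-Aa* is shown because the proximal CCAAT box is part of the conserved class II promoter (RefSeq start, GRCm38.p6, chr17:34287824-34288073, minus strand, the box in capitals 48 bases before the start on the strand opposite to the printed one). A CCAAT box was in all 7 members that had a RefSeq entry, against 37.5% of all genes. These are not the 7 members that passed the filter. *H2-Ab1*, *Cd74* and *Ciita* passed it but had no entry, while *H2-DMb2*, *H2-Oa* and *H2-Ob* had an entry but did not pass. The promoter of *H2-Aa* reads:
H2-Aa: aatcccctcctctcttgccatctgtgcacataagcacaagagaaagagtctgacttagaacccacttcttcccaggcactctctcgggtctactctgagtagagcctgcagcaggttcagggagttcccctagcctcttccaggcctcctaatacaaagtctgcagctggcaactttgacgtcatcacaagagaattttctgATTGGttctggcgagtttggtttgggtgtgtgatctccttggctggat

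Markers of macrophages, of T and NK cells and of B cells were lower too, and their part in the class II values was not tested. Of 15 macrophage and Kupffer cell markers 11 fell and 0 rose, and their sum was 153 to 195 CPM under Cort and 295 to 429 CPM untreated. *Vsig4*, a complement receptor of Kupffer cells, had 2.87, 1.25, 7.21 and 6.16 CPM against 11.7 to 19.1 CPM with a median of 16.4 (log2 fold change -1.85 ± 0.39, adjusted p = 0.00362), while the pan-macrophage *Cd68* did not pass (-0.17, adjusted p = 0.475). Of 10 T and NK cell markers tested 9 fell, with sums over 16 markers of 1.54 to 2.63 and 6.11 to 8.52 CPM. Of 4 B cell markers tested 3 fell, from the low levels given above. The share that fell was 73.3% for macrophage, 25.0% for stellate cell and 41.7% for sinusoidal endothelial markers, against 17.6% of all genes. The shares of T and NK cell (90.0%) and B cell markers (75.0%) cannot be set against that of all genes. At such low levels a marker can pass the filter on low counts through the untreated livers alone, which favours falls among those tested. Stellate cell and fibroblast markers gave 3 lower and 0 higher of 12 (sums 163 to 214 and 245 to 327 CPM), and sinusoidal endothelial markers 5 lower and 1 higher of 12 (sums 294 to 376 and 367 to 498 CPM). Of 6 cholangiocyte markers tested 2 rose, of 6 adipocyte markers tested 2 fell, of 6 erythroid markers tested 2 rose and 1 fell, and 0 of 2 neutrophil and 0 of 11 muscle markers were called. The shares called were 33.3% for cholangiocyte, 33.3% for adipocyte and 50.0% for erythroid markers, against 39.0% of all genes. Pancreatic acinar markers were low in all livers (sums 4.85 to 8.38 and 14.1 to 31.0 CPM), where both of the 2 tested fell, and no kidney marker passed the filter.

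The shares of matrix and of proliferation genes that were called were both below the 39.0% of all genes. Of 17 collagens and matrix genes 3 rose and 2 fell, among them *Sparc*, a matrix glycoprotein (23.0, 22.1, 22.2 and 19.4 CPM against 32.6 to 52.5 CPM with a median of 39.7, log2 fold change -0.90 ± 0.13, adjusted p = 0.000466), while *Col1a1* (0.56, adjusted p = 0.241) and *Col3a1* (-0.43, adjusted p = 0.326) did not pass. Of 15 proliferation genes 1 rose and 2 fell, with a median of -0.40, and the median of the matrix list was -0.06. The riser was *Cdkn1a*, an inhibitor of the cycle, and the others were the kinase *Cdk1* (-1.23, adjusted p = 0.00772) and the replication helicase subunit *Mcm6* (-1.16, adjusted p = 0.0102).

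Further large differences lay outside the lists. *Lars2*, a mitochondrial leucyl-tRNA synthetase, had 41.2, 47.2, 61.9 and 40.6 CPM under Cort and 2547 to 3721 CPM with a median of 3237 untreated (log2 fold change -6.07 ± 0.20, adjusted p = 1.90e-08), 67.2-fold lower, and WT livers gave -6.05. The microRNA gene *Mir6236*, named after its values were seen, showed the same pattern (4.00, 3.69, 3.64 and 3.10 CPM against 262 to 432 CPM with a median of 319.5, log2 fold change -6.50 ± 0.18, adjusted p = 5.52e-09). So did *Gm15564* (log2 fold change -7.17, adjusted p = 3.44e-08) and *Gm23935* (-4.39, adjusted p = 8.65e-06), also named after their values were seen. Whether the reads counted for *Lars2*, *Mir6236*, *Gm15564* and *Gm23935* came from transcripts of these genes was not tested. Their values are therefore not read as a change in a synthetase or a microRNA. *Fabp5*, a fatty acid-binding protein, had 2.27, 2.58, 2.29 and 2.16 CPM against 13.8 to 74.3 CPM with a median of 32.9. The difference in *Fabp5* was -4.07 ± 0.52 on the log2 scale (adjusted p = 0.000230). The groups were far apart in *Lars2*, *Mir6236* and *Fabp5*. *Mmd2* (log2 fold change -4.43 ± 0.56, adjusted p = 0.000219), *Chrna4*, a subunit of nicotinic receptors (log2 fold change -5.75 ± 1.03, adjusted p = 0.00149, -6.51 without Cort replicate 3 and -5.10 without untreated replicate 1), and *Ugt2b37* (log2 fold change -4.38 ± 1.20, adjusted p = 0.0143, -3.31 without untreated replicate 3) fell. *Obp2a*, an odorant-binding lipocalin, rose from 2.02 to 15.8 CPM with a median of 4.45 to 50.5, 71.6, 74.9 and 43.7 CPM (log2 fold change 3.27 ± 0.48, adjusted p = 0.000529), and the Ras-like *Rasl10b* rose as well (5.54, 3.64, 5.29 and 8.93 CPM against 0.375 to 0.817 CPM with a median of 0.498, log2 fold change 3.39 ± 0.28, adjusted p = 2.97e-05). *Trim80* (log2 fold change 3.58 ± 0.28, adjusted p = 2.03e-05) and *R3hdml* (log2 fold change 3.02 ± 0.41, adjusted p = 0.000352) are uncertain, since 63.1% and 98.9% of their strand-resolved counts in the untreated livers lay on the other strand.

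**Figure D4:**
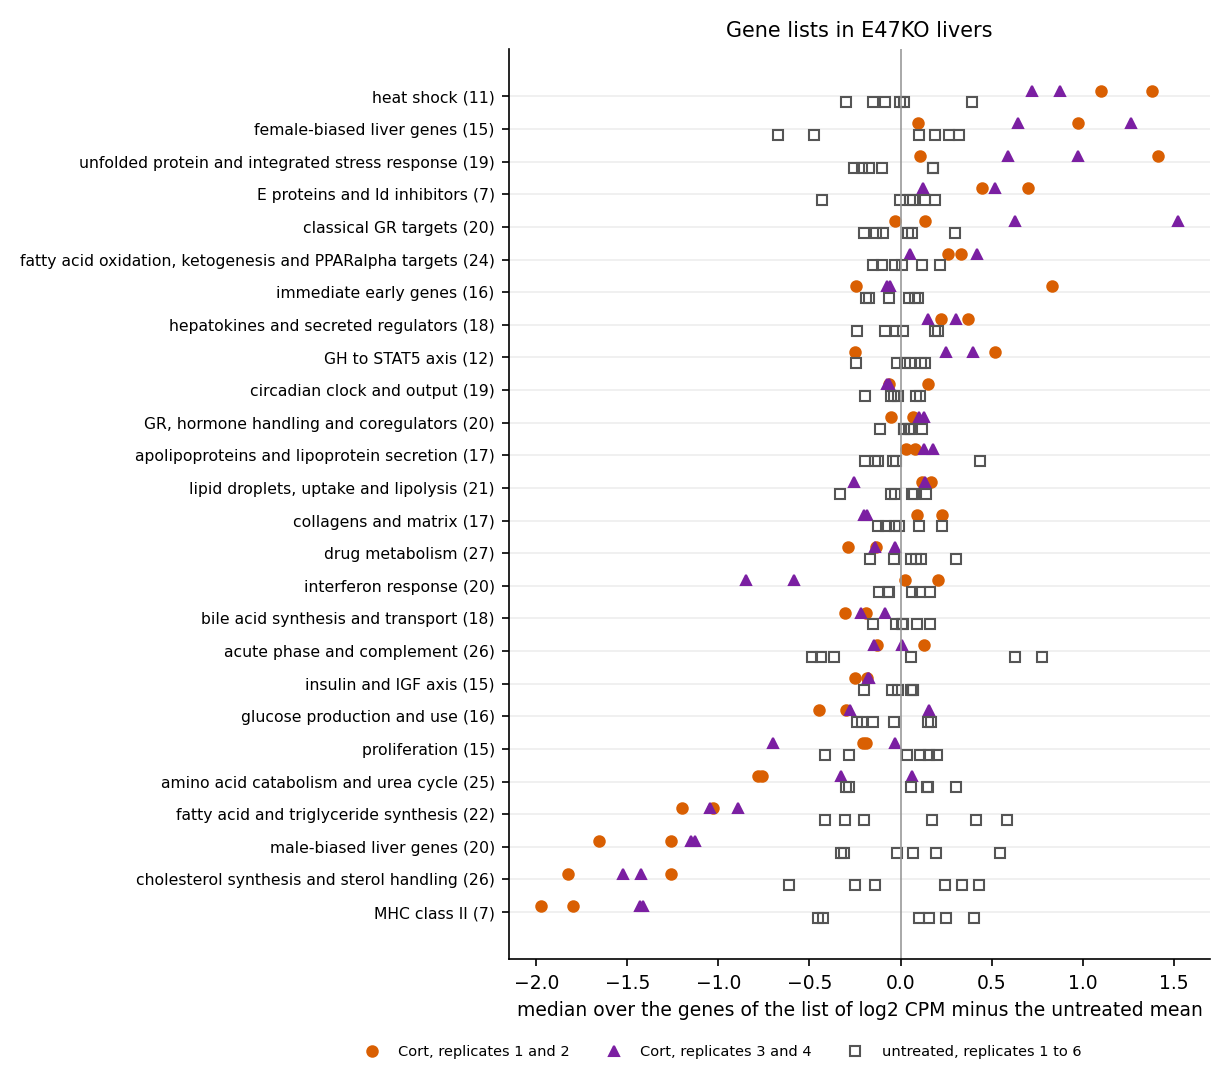
Level of each gene list in each E47KO liver (x axis), as the median over its tested genes of log2 CPM, with a pseudocount of 0.5, minus the mean of the untreated livers. The sterol, fatty acid, male-biased and MHC class II lists lie left of all untreated livers in all 4 Cort livers, and the classical GR targets lie near 0 in replicates 1 and 2 and above it in replicates 3 and 4.

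Whether the response depended on E47 was asked by testing the difference between the E47KO and the WT response over all 19 livers, with both contrasts resting on the same separation of experiments. Of 14991 genes, 1 was called (0.00667%), against 1024 at an unadjusted p below 0.05, and DESeq2 called 14. The gene was *Hsd3b5*, which fell by 2.62 in E47KO livers and by 7.99 in WT livers (difference 5.34 ± 0.68, adjusted p = 0.00387). WT livers had a mean of 1.16 CPM under Cort and 296 CPM untreated, against 35.1 ± 27.0 CPM (SD, n = 4) and 216 ± 73.4 CPM (n = 6) in E47KO livers. No other gene had an adjusted p below 0.271 with edgeR, which does not show that the responses were alike.

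List by list, the values of both genotypes are given without a test. The median log2 fold change of the sterol list was -1.66 in E47KO and -1.13 in WT livers, and that of fatty acid and triglyceride synthesis -1.19 and -0.71. Male-biased genes had -1.38 and -1.73, female-biased genes 0.97 and 2.12, MHC class II genes -1.75 and -2.43, unfolded protein response genes 0.86 and 0.88, and GR targets 0.50 and 0.60. Single genes with a wide gap were *Hmgcs1* (-1.86 in E47KO, -0.45 in WT, adjusted p of the difference 0.629), *Mt1* (0.62 and 3.08, 0.674), *Apoa4* (2.59 and 4.12, 0.674) and *Cidec* (-0.05 and 1.55, 0.735). None of these differences passed.

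**Figure D5:**
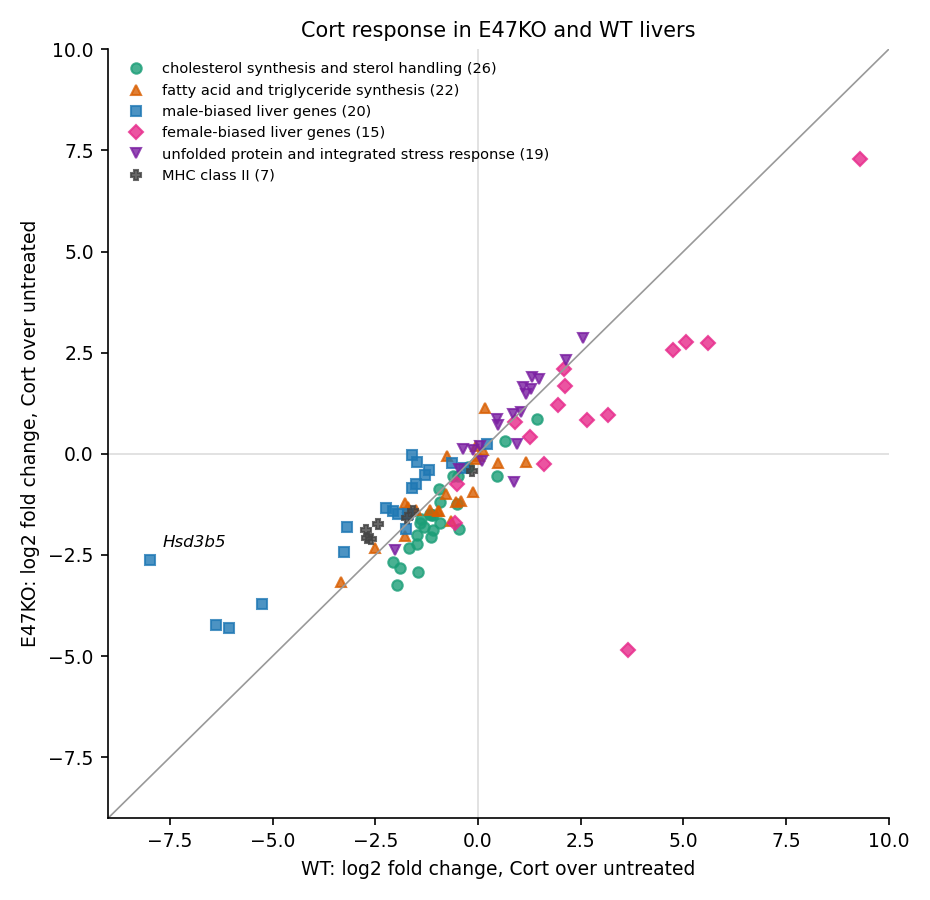
Log2 fold change of Cort over untreated livers in WT (x axis) and in E47KO (y axis), 1 point a gene, for 6 lists with the number of genes tested in the legend and the line of equal response. *Hsd3b5*, at -7.99 in WT and -2.62 in E47KO, is the labelled gene.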

How the data were processed

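Poly(A) RNA of liver was sequenced by the authors, and reads were mapped to mm10 (Ensembl annotation) and counted per gene with STAR 2.4.2a. The study's methods also name a depletion of ribosomal RNA, without separating the groups. The deposited values are raw read counts per gene, unnormalised, with a column for both strands and 1 for each strand. The submitters' processing notes also name HTSeq and DESeq2. The labels give the Qiazol protocol for Cort livers and name none for the untreated ones, while the study's methods give the RNeasy kit for liver in general. A stranded or an unstranded kit is named without saying which library had which. Tables of the authors' own comparisons between genotypes (fold changes and p-values) were not used, and 0 columns of other per-sample values were left out.

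The both-strand counts were used for all 10 E47KO livers. Entries with no gene (21.6 to 22.7% of the Cort and 22.8 to 33.2% of the untreated libraries) were left out of library sizes. Symbols and positions came from GENCODE M21 (GRCm38), with a symbol for 45143 of 45706 genes. Genes were filtered with filterByExpr and tested with edgeR 4.0.16 (TMM, quasi-likelihood test, R 4.3.3) and Benjamini-Hochberg adjustment at 0.05, and the same was done over 19 livers for the difference between the genotypes' responses. CPM used TMM-scaled library sizes. The code was tested on simulated data. Values at 0 have a floor of 3 counts per library, and depth covers counting error only.

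The members and gene lists were chosen with earlier results of these data known. Described singly were the 12 largest rises and 12 largest falls among called protein-coding genes with at least 5 CPM in the higher group and no overlap, up to 6 members of each list with the smallest adjusted p, and a fixed set of GR, metabolic and immune genes. Other genes are named as list members or as said in the text, and some genes that this rule covers are not reported here. Motifs were searched on both strands of the 250 bases before each RefSeq start (GRCm38.p6). Alternatives were size factors by RLE, DESeq2 1.42.0, other filters, the strand column, genes without antisense counts, a replicate block, leaving out each replicate, a fold threshold of 1.5, a robust prior, the fit over 19 livers and each pair of Cort livers. A GC and length offset, only libraries with muscle transcripts, and only untreated replicates 1 to 4 were added after seeing the data.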

Additional observations from a re-analysis of the deposited data

Results flagged for a closer look

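Of 348 groups of 4 or 6 livers looked at, 23 held a liver that stood farther from its nearest neighbour than Dixon's 95% critical value allows, where chance alone gives about 1 in 20 groups. By library these were 4 in Cort replicate 1, 2 in Cort replicate 2, 4 in Cort replicate 3, 5 in untreated replicate 1, 2 in untreated replicate 2, 1 in untreated replicate 3, 2 in untreated replicate 5 and 3 in untreated replicate 6.

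Among the Cort livers, replicate 1 stood above the others for *Sult1e1* (25.3 CPM, next 5.72), *Fos* (11.9 CPM, next 2.18) and *Atf5* (337 CPM, next 280.2), and below them for *Igfbp2* (79.4 CPM, next 155). Replicate 2 was highest for *Hsph1* (144 CPM, next 105) and lowest for *Rora* (39.0 CPM, next 57.8). Replicate 3 was highest for *Tat* (3193 CPM, next 1028) and *Tsku* (591 CPM, next 269), and lowest for *Hadha* (435 CPM, next 515) and *Susd4* (21.2 CPM, next 25.5).

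Among the untreated livers, replicate 1 was highest for *Gadd45b* (1.38 CPM, next 0.583), *Syvn1* (113 CPM, next 63.8), *Klf2* (6.88 CPM, next 3.42) and *Bag3* (39.2 CPM, next 21.5), and lowest for *Tcf4* (8.99 CPM, next 12.7). Of these, *Gadd45b*, *Syvn1* and *Bag3* were called higher under Cort, and replicate 1 was still below every Cort liver for each. Replicate 6 was highest for *Sult1e1* (1.14 CPM, next 0.242), *Mup18* (177 CPM, next 53.7) and *Mup8* (19.3 CPM, next 5.69). Replicate 2 was highest for *Cux2* (1.56 CPM, next 0.394) and *Angptl8* (60.2 CPM, next 19.4), replicate 3 for *Hspd1* (701 CPM, next 566), and replicate 5 for *Fgf21* (2.50 CPM, next 0.865) and *Fmo2* (31.1 CPM, next 21.4).

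The response of *Hsd3b5* differed between the genotypes in the test of the difference itself, by 5.34 on the log2 scale (edgeR's quasi-likelihood test, adjusted p = 0.00387), with a smaller fall in E47KO than in WT livers.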

How the results depend on the processing

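Calls for the E47KO comparison numbered 5589, and leaving out 1 liver in turn gave 4513 to 6421. They numbered 3671 with a mean of at least 5 CPM, 3412 with Cort replicates 3 and 4 only, 1219 against a fold change of 1.5 and 3136 with a replicate block. The block bears on replicate numbers that do not pair the livers, since deviations of same-numbered livers correlated at 0.18, -0.24, -0.27 and 0.22, and not every liver correlated best with its own number. The response of E47KO against WT gave 1 call, 14 with DESeq2, 3 with the replicate block and 1 without any 1 liver. Of the other 46 values of these counts, all stayed within 1.5-fold. The cause of the changes was not tested beyond the smaller number of genes or livers.

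Medians of gene lists, as log2 fold changes, kept their sign and moved by less than the spread between replicates in 620 values, with 20 that moved further and 10 that reversed. With Cort replicates 1 and 2 only, the median was -0.095 for classical GR targets, 0.17 for the interferon response and 0.13 for collagens and matrix, each the reverse of all livers, and -0.35 for the insulin and IGF axis and 0.28 for female-biased genes. With Cort replicates 3 and 4 only, it reversed to -0.16 for the clock and -0.15 for immediate early genes, and was -0.14 for glucose production, -0.088 for amino acid catabolism, -1.06 for male-biased genes and -0.87 for the interferon response. With the muscle-bearing libraries only, it reversed to -0.16 for immediate early genes, and was 1.013 for classical GR targets, 0.28 for E proteins and Id inhibitors, -0.11 for glucose production, -0.13 for amino acid catabolism, -1.04 for male-biased genes, -0.87 for the interferon response, 0.72 for heat shock and -0.74 for proliferation. With the replicate block it reversed to -0.048 for the clock and 0.27 for acute phase and complement genes, and was 0.14 for GR, its hormone and coregulators. With untreated replicates 1 to 4 only, it reversed to 0.26 for acute phase and complement genes and was 0.13 for GR, its hormone and coregulators. With the GC and length offset it reversed to -0.053 for the clock and was 0.38 for hepatokines, and with a mean of at least 5 CPM it was -0.68 for proliferation. Leaving out 1 liver gave 0.38 to 0.68 for E proteins and Id inhibitors and -0.75 to -0.23 for proliferation.

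Among the values of genes described singly, 3838 kept their direction and side of the threshold, 417 lost the call, 36 gained one and 31 reversed. The reversed genes were not called with all livers. Without 1 liver, *Tsc22d3* ranged from -0.53 to 0.54, *Per1* from -0.31 to 0.69, *Plin2* from -0.31 to 0.18, *Cidec* from -0.42 to 0.66, *Lcn2* from -0.093 to 0.89 and *Dbp* from -0.50 to 0.14. With Cort replicates 1 and 2 only, *Tsc22d3* was -1.07, *Per1* -0.92, *Plin2* 0.33 and *Dbp* 0.47. With Cort replicates 3 and 4 only, *Cidec* was 0.072 and *Cyp2b9* -2.90. With the muscle-bearing libraries only, *Tat* was 0.11, *Pck1* 0.053, *Cyp2b9* -2.83 and *Lcn2* -0.070. *Per1* was -0.053 with the offset, *Cidec* 0.19 in the strand column and *Saa1* 0.20 with the replicate block. Depth limits genes near the floor, such as *Cidea* in the Cort livers.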
